A study of Homo sapiens with 24 samples.

Results

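HCT116 is a human colorectal carcinoma cell line, and the comparison described here is that of its p53 mutant line treated with APR-246 with the same line given solvent. It rests on 4 of the 24 RNA libraries of the series: 2 labelled P53 Mutant, APR-246 and 2 labelled P53 Mutant, Solvent control, chosen by those labels. The series crosses 3 HCT116 lines (p53 mutant, p53 null and p53 wild type, called Mutant, Null and WT) with 4 conditions, each with 2 libraries: APR-246, irradiation at 6 Gy, the combination, and solvent. APR-246 was used at 20 uM, and its 4-library comparisons in Null and WT are set beside that in Mutant. Cells were grown in McCoy 5A medium with serum and collected 72 hours after irradiation, with APR-246 added before it where both were given. The labels give neither how long unirradiated cells were in contact with APR-246 nor which p53 mutation the line carries, and each p53 status is represented by 1 line. They number the libraries of a group without saying whether they came from separate cultures, so every p-value measures the spread between these libraries, which may be technical.

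APR-246 is a prodrug that releases a compound reactive towards thiol groups. It was developed to bind cysteines of mutant p53 and restore its fold, and it is also known to bind glutathione and thioredoxin reductase. Wild-type p53 switches on genes of cell cycle arrest, DNA repair and death. ATF4, a transcription factor made when translation is slowed by stress, switches on genes of amino acid supply and stress signalling. E2F factors, released from the retinoblastoma protein when cells enter S phase, switch on the genes of DNA replication.

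The 4 libraries held 54997517 to 57772352 reads assigned to genes, and values are given in CPM, which scale counts to library size, after TMM scaling between libraries. Of 587 genes in 32 lists 549 passed the filter on low values, and every list below is described over its members that passed. The colon epithelial markers EPCAM (94.5 and 70.4 CPM with APR-246, against 119 and 88.6 CPM in solvent), CDH1 and CDX2 were expressed in every library. CDX1, LGR5, CEACAM6 and FABP1, of the same list, were below the filter on low values. Of the 10 markers of that list that passed it, 6 had a mean of at least 1 CPM over the 4 libraries. Blood cell markers that passed the filter summed to 0.591 and 4.60 CPM with APR-246, against 0.319 and 0.896 CPM in solvent. HBB and CD3E did not pass it. HBB was at 0 CPM in all 4 libraries, and CD3E in all but solvent library 1, at 0.0177 CPM before TMM scaling. Fibroblast markers summed to 33.0 and 14.3 CPM with APR-246, against 32.2 and 18.5 CPM in solvent, nearly all of it COL1A1, and COL1A2, LUM, FAP and POSTN were at 0 CPM. These RNAs come from whole cultures, so fewer cells of a kind and less RNA per cell cannot be told apart.

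DNA replication genes had a median log2 difference, APR-246 minus solvent, of 1.12, and heat shock chaperones of 0.81, while stress regulators of the ATF4 programme had one of -1.87, beside -0.03 over all genes tested. No single gene passed the limma test with 12 groups and no covariate. That test compared log2 values over 20668 genes, called a gene at a Benjamini-Hochberg adjusted p of 0.05, and called 0 higher and 0 lower (0% called). Its smallest adjusted p was 0.25, 1516 genes (7.34%) had an unadjusted p below 0.05, edgeR called 0 (1402 at an unadjusted p below 0.05), and DESeq2 called 51 higher (0.322%) and 46 lower (0.29%), 0.612% in all of the 15859 genes to which it gave an adjusted p. Standard errors of the log2 differences had a median of 0.321.

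The libraries differed in how their values depended on the GC content of genes. The slope of log2 values on gene GC percent was -0.0265 and 0.0291 per percentage point with APR-246, against -0.0649 and 0.0234 in solvent. In both groups library 1 lay below 0 and library 2 above it. The group means of the slope differed by 0.0220. Over 4 equal groups of genes from the lowest GC content to the highest, the median log2 difference was -0.20, -0.06, 0.03 and 0.12, and with the slope of each library as a covariate it was -0.03, 0.00, 0.01 and 0.00. In the limma fit with this covariate, named "with the GC slope" below, standard errors had a median of 0.185, and 1392 genes (6.74%) were called, of which 684 (3.31%) were higher and 708 (3.43%) lower. The direction of 1390 of these 1392 was the same without the covariate. In 941 of them the groups also did not overlap, in the same direction. Rose and fell below refer to calls with the GC slope. This covariate was chosen with earlier results of these data known.

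**Figure D1:**
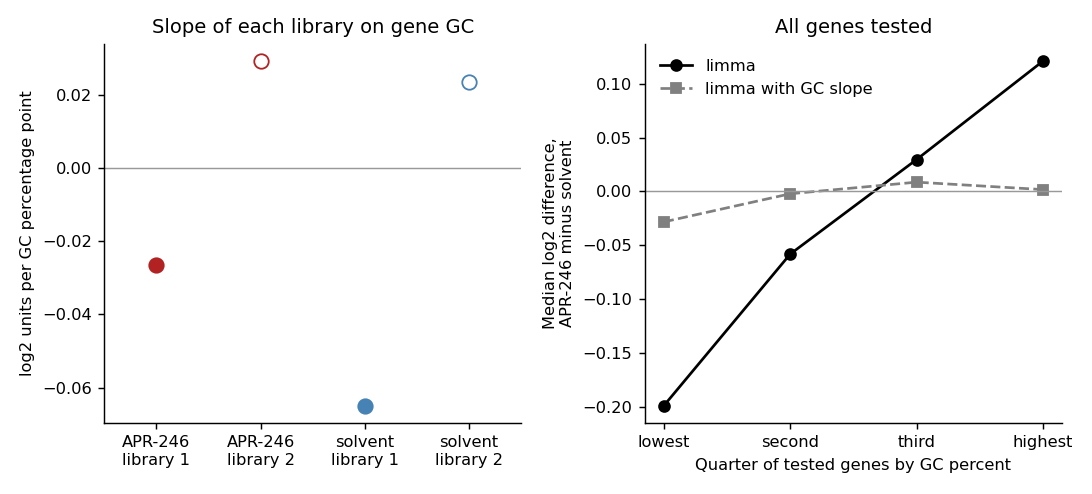
GC dependence of the 4 Mutant libraries. Left, slope of log2 values on gene GC percent in each library, with both libraries 1 below 0 and both libraries 2 above 0. Right, median log2 difference (APR-246 minus solvent) in 4 equal groups of the tested genes by GC percent, running from -0.20 to 0.12 without the covariate and from -0.03 to 0.01 with it.

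The calls with the GC slope needed library 2 of each group. Leaving out APR-246 library 2 or solvent library 2 left 0 genes called (2384 and 2222 genes at an unadjusted p below 0.05), while 664 were higher and 691 lower without APR-246 library 1, and 505 were higher and 699 lower without solvent library 1. On the deposited CPM, without TMM scaling, the split was 1370 higher and 343 lower, or 80% higher against 49.1%. This limit applies to every call named below, and medians without these libraries are given beside most groups of genes.

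**Figure D2:**
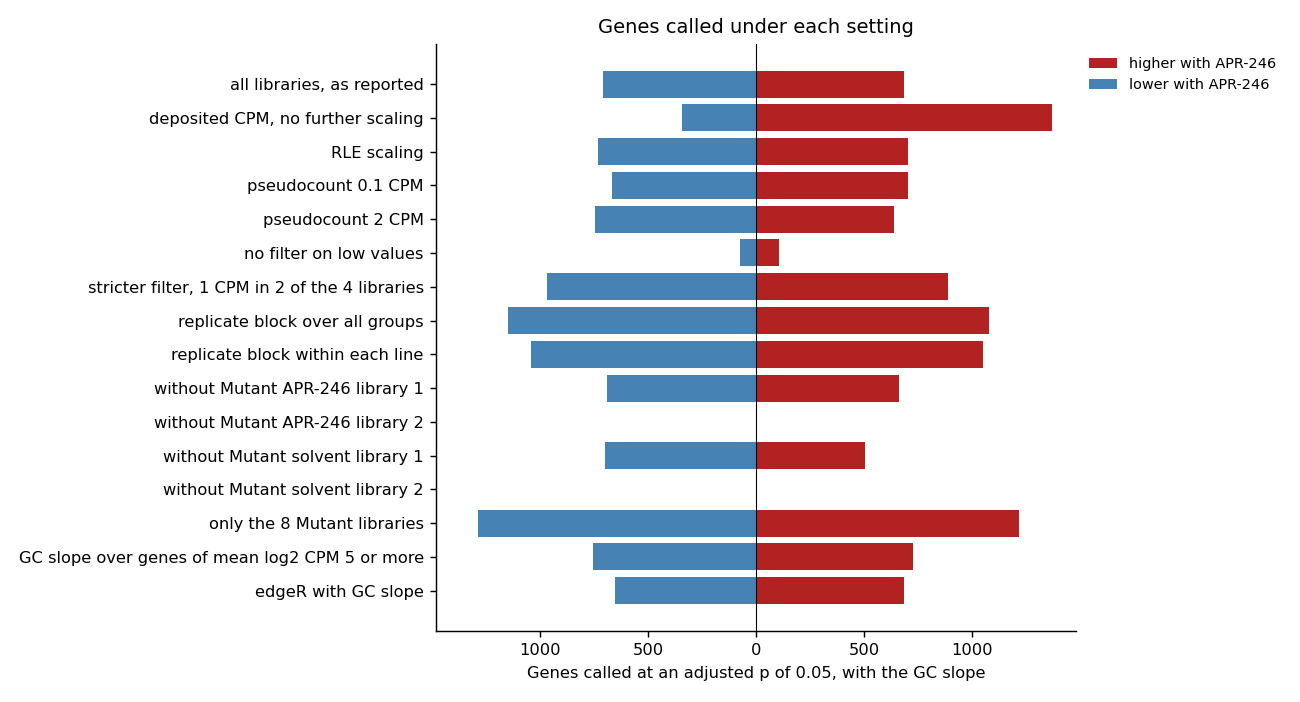
Number of genes called higher (red, to the right) or lower (blue, to the left) with APR-246 than in solvent at an adjusted p of 0.05 in the fits with the GC slope, 1 row per setting. Both rows that leave out a library 2 hold 0 genes, and the row with no filter on low values holds 108 higher and 72 lower.

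The largest differences that passed with the GC slope were in genes of several kinds. Among protein-coding genes with a mean of at least 5 CPM whose groups did not overlap, the 12 highest held the replication genes GINS2, MCM4, MCM5 and ORC1 and the chaperone HSPA1B. They also held CDKN2C, an inhibitor of the kinases CDK4 and CDK6, BMP4, a secreted growth factor, NUDT1, which clears oxidized nucleotides, and TUBA4A, an alpha tubulin. MAP1A, LRRC45 and ZNF488 completed them. MAP1A, a microtubule-associated protein, had 10.2 and 17.1 CPM with APR-246, against 1.97 and 3.07 CPM in solvent (log2 difference 2.21 ± 0.59, adjusted p = 0.379 in limma; 2.01 ± 0.53, adjusted p = 0.0375 with the GC slope). CDKN2C had 13.1 and 20.9 CPM with APR-246, against 2.77 and 4.18 CPM in solvent (2.12 ± 0.54, adjusted p = 0.364; 1.87 ± 0.36, adjusted p = 0.0102 with the GC slope). BMP4 had 40.5 and 61.9 CPM with APR-246, against 14.4 and 14.9 CPM in solvent (1.74 ± 0.40, adjusted p = 0.296; 1.65 ± 0.38, adjusted p = 0.0252 with the GC slope). In each of these 3 genes library 2 was the higher of both groups, and the gap between groups was wider than that between solvent libraries.

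The 12 lowest were led by DDIT4, the stress-induced inhibitor of the growth kinase mTORC1. DDIT4 (chromosome 10, 72273920 to 72276036 in GENCODE 29) had 36.4 and 25.1 CPM with APR-246, against 205 and 253 CPM in solvent (log2 difference -2.89 ± 0.51, adjusted p = 0.25 in limma; -2.92 ± 0.56, adjusted p = 0.0156 with the GC slope; adjusted p = 0.000253 by DESeq2). TSC22D3, a glucocorticoid-induced leucine zipper protein, had 11.3 and 10.4 CPM with APR-246, against 39.8 and 62.1 CPM in solvent (-2.15 ± 0.44, adjusted p = 0.256; -2.16 ± 0.47, adjusted p = 0.0218 with the GC slope). PTPDC1, the serpin SERPINB8, LAMP3 and THSD4 were also among them, at log2 differences of -2.65, -2.08, -1.86 and -1.98. In DDIT4 and TSC22D3 the libraries of a group lay closer to each other than to the other group, while PTPDC1 had 6.75 and 1.80 CPM with APR-246, against 31.6 and 20.0 CPM in solvent, with APR-246 library 2 well below APR-246 library 1.

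**Figure D3:**
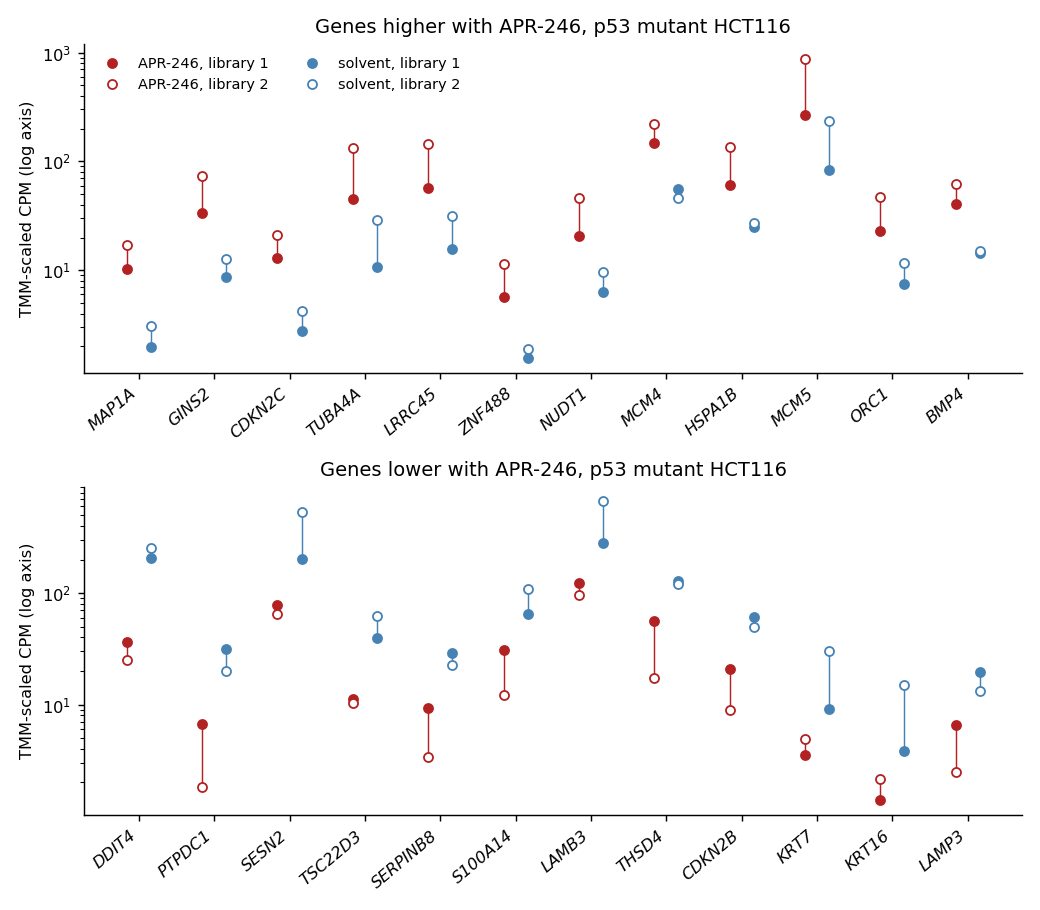
TMM-scaled CPM (log axis) of the 12 highest and 12 lowest genes of the rule above, in APR-246 (red, left of each pair) and solvent (blue, right), with library 1 filled and library 2 open. The groups do not overlap for any of the 24 genes, which the rule required, and MCM5 spans 267 to 874 CPM with APR-246 and 84.2 to 235 CPM in solvent.

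Genes of DNA replication were higher with APR-246 nearly throughout. Of 41 genes of this list, which covers the loading of the MCM helicase, its activation, the polymerases and the clamp, 35 rose and 0 fell with the GC slope. Of all genes tested 3.31% rose and 3.43% fell. The groups did not overlap in 35, with APR-246 higher, against 11.9% of all genes tested that did not overlap in that direction and 13.2% in the other. The median log2 difference over the 41 was 1.12 (1.07 with the GC slope), beside -0.03 (-0.01) over all genes tested. The list's median level per library, each gene relative to its mean over the 4, was 0.28 and 0.79 with APR-246, against -0.54 and -0.50 in solvent, so both APR-246 libraries lay above both solvent libraries. The median log2 difference was 0.82 without APR-246 library 2 and 1.04 without solvent library 2 (0.85 and 0.86 with the GC slope), with 0 of the 41 called in either case.

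By role, ORC1, part of the complex that marks origins, had 22.8 and 46.8 CPM with APR-246, against 7.50 and 11.7 CPM in solvent (1.75 ± 0.52, adjusted p = 0.395; 1.49 ± 0.30, adjusted p = 0.0121 with the GC slope). Among the helicase subunits, MCM4 had 147 and 221 CPM with APR-246, against 55.8 and 46.5 CPM in solvent (1.81 ± 0.36, adjusted p = 0.25; 1.81 ± 0.33, adjusted p = 0.0102 with the GC slope). MCM5 had 267 and 874 CPM with APR-246, against 84.2 and 235 CPM in solvent (1.77 ± 0.81, adjusted p = 0.655; 1.30 ± 0.28, adjusted p = 0.0164 with the GC slope). GINS2, a subunit of the complex that turns the loaded helicase on, had 33.5 and 74.0 CPM with APR-246, against 8.74 and 12.8 CPM in solvent (2.18 ± 0.59, adjusted p = 0.379; 1.88 ± 0.36, adjusted p = 0.0118 with the GC slope). In MCM5 library 2 of each group stood well above library 1, and its APR-246 library 1 exceeded solvent library 2 by a small margin. In GINS2 and ORC1 the APR-246 libraries were separated from the solvent libraries by a wider gap than the libraries of solvent were from each other.

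Genes that make deoxynucleotides and genes of the G1 to S transition were also higher. Of 12 nucleotide supply genes 8 rose and 0 fell (median log2 difference 0.90, 0.73 with the GC slope). Of all genes tested 3.31% rose and 3.43% fell. TYMS, which makes thymidylate, had 27.2 and 43.2 CPM with APR-246, against 9.43 and 13 CPM in solvent (1.59 ± 0.34, adjusted p = 0.256; 1.47 ± 0.24, adjusted p = 0.00363 with the GC slope). Both subunits of ribonucleotide reductase rose. RRM1 had 57.4 and 67.0 CPM with APR-246, against 29.8 and 21.1 CPM in solvent (1.37 ± 0.24, adjusted p = 0.00568 with the GC slope), and RRM2 had 171 and 222 CPM with APR-246, against 93.9 and 92.9 CPM in solvent (0.99 ± 0.23, adjusted p = 0.0169 with the GC slope). TK1, thymidine kinase, was 1.53 (0.94, adjusted p = 0.0269 with the GC slope), but its groups overlapped, at 542 and 1775 CPM with APR-246, against 159 and 724 CPM in solvent. Of 17 G1 cyclins and E2F genes 10 rose and 0 fell (median 0.66, 0.69 with the GC slope). E2F1 had 71.8 and 173 CPM with APR-246, against 25.7 and 63.1 CPM in solvent (1.46 ± 0.67, adjusted p = 0.663; 1.05 ± 0.19, adjusted p = 0.00507 with the GC slope). SKP2, the ubiquitin ligase subunit that removes the inhibitor p27, had 21.6 and 27.9 CPM with APR-246, against 10.9 and 6.92 CPM in solvent (1.45 ± 0.30, adjusted p = 0.256; 1.46 ± 0.26, adjusted p = 0.0048 with the GC slope). CCND3, cyclin D3, rose with the GC slope (0.94 ± 0.22, adjusted p = 0.0165) with overlapping groups, and E2F2 rose by 1.19 (adjusted p = 0.0277 with the GC slope). The medians were 0.66 without APR-246 library 2 and 0.99 without solvent library 2 (0.68 and 0.57 with the GC slope) for nucleotide supply, and 0.58 without APR-246 library 2 and 0.51 without solvent library 2 (0.57 and 0.60 with the GC slope) for the G1 genes, with 0 called in each case.

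E2F-type letters were searched in RefSeq promoter windows of build GRCh38.p14, 250 bases before to 50 after each start, as TTTGGCGC, TTTCCCGC, TTTGCCGC or TTTCGCGC on either strand, where matches may overlap. At least 1 match was found in 57.1% of the 35 replication genes with a window (20 genes), and in 3.99% of all 27305 genes with one. Among tested genes with a window the share was 6.12%, and it was 16.1% of the 548 that rose and 3.71% of the 512 that fell with the GC slope. The 250 bases before the start are shown for GINS2, TYMS and E2F1, because these genes rose and have a match there, in capitals. The match starts 31 bases before the start in GINS2, 39 bases in TYMS, and 33 and 20 bases in E2F1.
GINS2, chr16:85688955-85689204, - strand: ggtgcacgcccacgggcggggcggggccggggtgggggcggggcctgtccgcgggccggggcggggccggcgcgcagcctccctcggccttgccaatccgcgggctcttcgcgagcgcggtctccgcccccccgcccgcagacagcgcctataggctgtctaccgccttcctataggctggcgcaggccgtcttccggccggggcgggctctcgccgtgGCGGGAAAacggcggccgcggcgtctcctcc
TYMS, chr18:657403-657652, + strand: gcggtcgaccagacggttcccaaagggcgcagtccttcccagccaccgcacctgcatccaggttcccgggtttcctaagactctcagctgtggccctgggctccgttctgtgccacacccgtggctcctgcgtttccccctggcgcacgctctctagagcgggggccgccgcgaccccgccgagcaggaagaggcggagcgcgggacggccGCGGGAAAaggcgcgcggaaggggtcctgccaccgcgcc
E2F1, chr20:33686386-33686635, - strand: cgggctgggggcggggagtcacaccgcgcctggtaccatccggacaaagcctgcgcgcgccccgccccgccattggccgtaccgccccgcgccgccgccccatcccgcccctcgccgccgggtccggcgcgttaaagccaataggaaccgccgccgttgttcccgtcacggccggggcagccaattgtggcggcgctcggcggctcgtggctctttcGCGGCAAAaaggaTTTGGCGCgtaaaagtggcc
These letters are a description of the windows and were not tested for binding.

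Genes of homologous recombination and the Fanconi anemia pathway, which repair broken and crosslinked DNA, were partly higher: 11 of 20 rose and 0 fell with the GC slope (median log2 difference 0.44, 0.64 with the GC slope). FANCA, of the Fanconi core complex, had 70.0 and 114 CPM with APR-246, against 30.8 and 36.0 CPM in solvent (1.41 ± 0.28, adjusted p = 0.25; 1.32 ± 0.18, adjusted p = 0.00288 with the GC slope). RAD54L, a motor protein of recombination, and RMI2, of the complex that resolves recombination intermediates, rose by 0.99 (adjusted p = 0.011) and 0.94 (adjusted p = 0.0205) with the GC slope. This list has a low median GC of 41.3%, against 49.8% over all genes tested, and its level per library was 0.35 and 0.05 with APR-246, against 0.36 and -0.52 in solvent, so that solvent library 1 lay level with APR-246 library 1. The median was 0.67 without APR-246 library 2 and -0.09 without solvent library 2 (0.59 and 0.58 with the GC slope), changing sign without solvent library 2 unless the GC slope was included. It was 0.28 without APR-246 library 1 and 0.90 without solvent library 1. Of 30 genes of G2/M and mitosis 2 rose (BUB1B and ESPL1) and 0 fell, beside 3.31% and 3.43% of all genes tested. Their median was 0.23 (0.29 with the GC slope). The spindle checkpoint protein MAD2L1 had 51.3 and 63.0 CPM with APR-246, against 36.2 and 25.4 CPM in solvent (0.89 ± 0.32, adjusted p = 0.52; 0.90 ± 0.29, adjusted p = 0.0728 with the GC slope), and the mitotic kinesin KIF20A had 65.4 and 88.5 CPM with APR-246, against 34.8 and 47.7 CPM in solvent (0.78 ± 0.29, adjusted p = 0.113 with the GC slope).

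**Figure D4:**
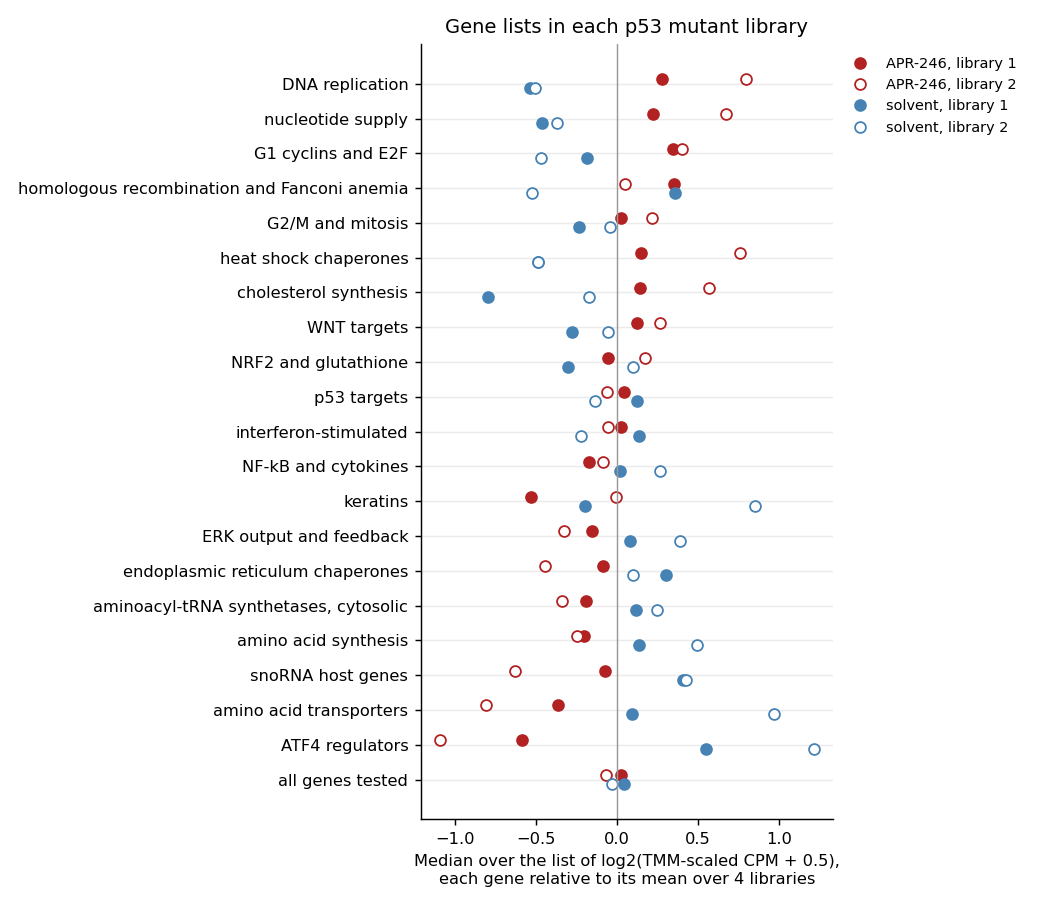
Median level of each gene list in each Mutant library, as log2(TMM-scaled CPM + 0.5) relative to each gene's mean over the 4 libraries, for APR-246 (red) and solvent (blue), with library 1 filled and library 2 open. Both APR-246 libraries lie above both solvent libraries for DNA replication, and below them for the ATF4 regulators, while over all genes tested the 4 libraries lie between -0.07 and 0.04.

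Heat shock chaperones, which fold proteins in the cytosol and mitochondria and are controlled by HSF1, were higher with APR-246. Of 20 genes 14 rose and 0 fell with the GC slope, beside 3.31% and 3.43% of all genes tested. The median log2 difference of the list was 0.81 (0.93 with the GC slope). The inducible HSP70 gene HSPA1B had 61.2 and 136 CPM with APR-246, against 25.0 and 27.4 CPM in solvent (1.78 ± 0.43, adjusted p = 0.352; 1.67 ± 0.40, adjusted p = 0.029 with the GC slope). Its neighbour HSPA1A is nearly identical, and reads may have been split between both, so their separate values are uncertain. HSPA8, the constitutive HSP70, had 739 and 1627 CPM with APR-246, against 388 and 430.0 CPM in solvent (1.42 ± 0.44, adjusted p = 0.422; 1.30 ± 0.33, adjusted p = 0.0344 with the GC slope). HSPE1, the mitochondrial co-chaperonin, had 18.0 and 30.1 CPM with APR-246, against 10.4 and 6.51 CPM in solvent (1.44 ± 0.39, adjusted p = 0.379; 1.42 ± 0.39, adjusted p = 0.0436 with the GC slope). HSPB1, a small heat shock protein, rose with the GC slope (1.07 ± 0.26, adjusted p = 0.0253), while its groups overlapped at 772 and 2704 CPM with APR-246, against 237 and 898 CPM in solvent. In HSPA1B and HSPA8 the solvent libraries lay close together and APR-246 library 2 lay highest. The list's median was 0.62 without APR-246 library 2 and 1.06 without solvent library 2 (0.64 and 0.80 with the GC slope), with 0 of the 20 called.

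Heat shock element letters (GAA, TTC and GAA, or their reverse complement, with any 2 bases between each) were found in the windows of 36.8% of the 19 listed chaperones with one (7 genes), and in 0.608% of all windowed genes. HSPA8 is shown because it rose and holds 2 matches, in capitals, starting 230 and 55 bases before the start.
HSPA8, chr11:123062137-123062386, - strand: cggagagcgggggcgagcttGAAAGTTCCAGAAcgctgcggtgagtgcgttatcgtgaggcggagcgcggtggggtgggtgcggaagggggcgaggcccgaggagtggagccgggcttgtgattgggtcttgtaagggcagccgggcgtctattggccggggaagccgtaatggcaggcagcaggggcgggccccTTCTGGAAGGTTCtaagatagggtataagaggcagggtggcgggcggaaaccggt

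The ATF4 programme was lower with APR-246. All 15 tested stress regulators of this list had a log2 difference below 0, with a median of -1.87 (-2.09 with the GC slope). Its level per library was -0.58 and -1.09 with APR-246, against 0.55 and 1.21 in solvent. The groups did not overlap in 13, all with APR-246 lower, beside 13.2% of all genes tested. With the GC slope 4 fell, namely ATF3, CEBPB, SESN2 and DDIT4, beside 3.43% of all genes tested. Solvent library 2 lay above solvent library 1 for the list as a whole. ATF4 itself had 429.8 and 462 CPM with APR-246, against 630.0 and 1024 CPM in solvent (-0.85 ± 0.37, adjusted p = 0.626; -0.92 ± 0.28, adjusted p = 0.0589 with the GC slope). DDIT3, which encodes the stress factor CHOP, had 6.42 and 2.88 CPM with APR-246, against 42.6 and 41.5 CPM in solvent (-3.14 ± 0.81, adjusted p = 0.364; -2.86 ± 0.80, adjusted p = 0.0541 with the GC slope; adjusted p = 0.0107 by DESeq2). CHAC1, which degrades glutathione, had 24.4 and 24.9 CPM with APR-246, against 78.6 and 172 CPM in solvent (-2.22 ± 0.79, adjusted p = 0.52; -2.43 ± 0.84, adjusted p = 0.108 with the GC slope). SESN2, a leucine-sensing inhibitor of mTORC1, had 78.6 and 65.6 CPM with APR-246, against 202 and 538 CPM in solvent (-2.19 ± 0.64, adjusted p = 0.395; -2.41 ± 0.60, adjusted p = 0.0374 with the GC slope). STC2, a secreted glycoprotein, had 85.5 and 33.7 CPM with APR-246, against 242 and 303 CPM in solvent (-2.21 ± 0.71, adjusted p = 0.0866 with the GC slope). NIBAN1 had 28.9 and 8.71 CPM with APR-246, against 94.2 and 71.6 CPM in solvent (-2.09 ± 0.67, adjusted p = 0.0856 with the GC slope). In these 6 genes both APR-246 libraries were below both solvent libraries, and ATF4, DDIT3, CHAC1, STC2 and NIBAN1 did not pass either limma test. The list's median was -1.52 without APR-246 library 2 and -1.49 without solvent library 2 (-1.54 and -1.58 with the GC slope), with 0 called.

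The amino acid genes that ATF4 is known to control had medians below 0 as well, with few calls. Of 11 amino acid transporters 3 fell and 0 rose (SLC7A1, SLC38A1 and SLC38A2). The groups did not overlap in 9, all with APR-246 lower, beside 13.2% of all genes tested. The median log2 difference of the 11 was -1.25 (-1.37 with the GC slope). SLC7A11, the cystine importer that supplies glutathione synthesis, had 42.6 and 8.90 CPM with APR-246, against 136 and 43.5 CPM in solvent (-1.95 ± 0.95, adjusted p = 0.7; -1.45 ± 0.63, adjusted p = 0.2 with the GC slope). SLC3A2, its heavy chain, had 455 and 611 CPM with APR-246, against 912 and 2182 CPM in solvent (-1.42 ± 0.62, adjusted p = 0.637; -1.66 ± 0.52, adjusted p = 0.0778 with the GC slope). In SLC7A11 library 2 was lower than library 1 in both groups, and APR-246 library 1 nearly reached solvent library 2. SLC38A1, a glutamine transporter, had 154 and 58.0 CPM with APR-246, against 354 and 159 CPM in solvent and fell with the GC slope (-0.96 ± 0.20, adjusted p = 0.0113). SLC6A9, a glycine transporter, was -1.39 (-1.57, adjusted p = 0.107 with the GC slope). Of 11 genes of amino acid synthesis 2 fell (PSPH and PYCR1) and 0 rose (median -0.62, -0.78 with the GC slope). ASNS, asparagine synthetase, had 3.62 and 1.19 CPM with APR-246, against 8.13 and 7.96 CPM in solvent (-1.70 ± 0.66, adjusted p = 0.555; -1.55 ± 0.68, adjusted p = 0.203 with the GC slope). PSAT1 of serine synthesis had 207 and 111 CPM with APR-246, against 392 and 329 CPM in solvent (-1.15 ± 0.50, adjusted p = 0.201 with the GC slope). MTHFD2 of mitochondrial folate metabolism and GPT2, alanine aminotransferase, were -1.01 and -0.91, with adjusted p = 0.14 and 0.0546 with the GC slope. Of 20 cytosolic aminoacyl-tRNA synthetases, which charge tRNAs, 1 fell, SARS1 (196 and 218 CPM with APR-246, against 309.8 and 561 CPM in solvent; -1.17 ± 0.31, adjusted p = 0.04 with the GC slope), and the median was -0.48. With the GC slope that median was -0.37, and -0.24 without solvent library 2. Among all genes tested 3.43% fell, and 1 synthetase of 20 is a share near that. WARS1, AARS1 and GARS1 were -1.44, -1.15 and -0.86 and did not pass. Without APR-246 library 2 or solvent library 2 no member of these lists was called, and the transporter median was -0.87 without APR-246 library 2 and -0.79 without solvent library 2 (-0.95 and -0.88 with the GC slope).

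ATF4-type letters, TGATGNAA on either strand, occurred in the windows of 4 of the 15 regulators with one (26.7%), of 5 of 10 transporters, of 1 of 7 synthesis genes, and of 4.46% of all windowed genes. The share was 4.30% of genes that fell, 1.28% of those that rose and 2.85% of tested genes with a window. ASNS and CHAC1, a synthesis gene and a regulator with 1 match each, are shown with it in capitals, starting 68 bases before the start in ASNS and 209 bases in CHAC1.
ASNS, chr7:97872409-97872658, - strand: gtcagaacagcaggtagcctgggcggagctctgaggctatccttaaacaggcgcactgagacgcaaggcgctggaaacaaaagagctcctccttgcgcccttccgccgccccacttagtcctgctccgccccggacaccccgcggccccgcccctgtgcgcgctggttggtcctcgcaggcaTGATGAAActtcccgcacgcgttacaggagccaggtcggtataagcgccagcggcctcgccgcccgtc
CHAC1, chr15:40953221-40953470, + strand: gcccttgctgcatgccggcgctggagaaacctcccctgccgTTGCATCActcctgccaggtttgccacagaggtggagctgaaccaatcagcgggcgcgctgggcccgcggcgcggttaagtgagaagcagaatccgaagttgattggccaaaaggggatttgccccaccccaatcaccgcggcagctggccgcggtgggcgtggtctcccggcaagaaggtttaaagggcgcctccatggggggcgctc

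Endoplasmic reticulum chaperones and sensors were partly lower: 5 of 20 fell and 0 rose with the GC slope (median log2 difference -0.59, -0.35 with the GC slope). Those that fell were DNAJB9, XBP1, HERPUD1, SEL1L and ERN1, of the sensor and degradation branches of the unfolded protein response. Of all genes tested 3.43% fell and 3.31% rose. DNAJB9, a co-chaperone of BiP, had 12.6 and 4.09 CPM with APR-246, against 35.3 and 16.9 CPM in solvent (-1.69 ± 0.54, adjusted p = 0.451; -1.41 ± 0.27, adjusted p = 0.00767 with the GC slope). ERN1, the sensor IRE1, had 23.6 and 11.8 CPM with APR-246, against 53.6 and 31.0 CPM in solvent (-1.02 ± 0.26, adjusted p = 0.0296 with the GC slope). HSPA5, which encodes BiP, had 1258 and 666 CPM with APR-246, against 2860 and 2561 CPM in solvent (-1.56 ± 0.54, adjusted p = 0.499; -1.37 ± 0.42, adjusted p = 0.0703 with the GC slope), with no overlap of the groups. The median GC of the list was 45.9%, and its median log2 difference was -0.30 without APR-246 library 2 and -0.69 without solvent library 2 (-0.34 and -0.27 with the GC slope). It was -0.85 without APR-246 library 1 and -0.22 without solvent library 1.

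Host genes of small nucleolar RNAs, spliced noncoding transcripts of which many are degraded when they are translated, were partly lower. Of 16, 7 fell and 0 rose (median log2 difference -0.84, -0.80 with the GC slope), beside 3.43% and 3.31% of all genes tested. The groups did not overlap in 12, all with APR-246 lower, beside 13.2% of all genes tested. SNHG8 had 40.6 and 29.9 CPM with APR-246, against 99.0 and 129 CPM in solvent (-1.68 ± 0.36, adjusted p = 0.256; -1.65 ± 0.34, adjusted p = 0.0161 with the GC slope). EPB41L4A-AS1 had 27.1 and 12.6 CPM with APR-246, against 48.0 and 67.9 CPM in solvent (-1.55 ± 0.40, adjusted p = 0.037 with the GC slope), but it lies antisense to another gene and the counting strand is not given in the sources used here, so its value is uncertain. GAS5, a growth-arrest transcript, had 166 and 65.6 CPM with APR-246, against 349 and 243 CPM in solvent (-1.48 ± 0.60, adjusted p = 0.594; -1.17 ± 0.36, adjusted p = 0.0645 with the GC slope), and SNHG12, another host gene, was -1.57 (-1.36, adjusted p = 0.144 with the GC slope). The list's median was -0.64 without APR-246 library 2 and -0.78 without solvent library 2 (-0.65 and -0.49 with the GC slope), with 0 called.

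Keratins, the filament proteins of epithelia, were partly lower. Of 14, 5 fell and 0 rose (KRT7, KRT15, KRT16, KRT18 and KRT81), with KRT18 overlapping between groups. Of all genes tested 3.43% fell and 3.31% rose. The keratin median was -0.37 (-0.70 with the GC slope), and without the slope 3 lay above 0 and 11 below. The groups did not overlap in 5 with APR-246 lower and in 2 with it higher, beside 13.2% and 11.9% of all genes tested. KRT15 had 12.5 and 9.17 CPM with APR-246, against 21 and 31.9 CPM in solvent (-1.24 ± 0.29, adjusted p = 0.352; -1.26 ± 0.25, adjusted p = 0.00875 with the GC slope). KRT7 had 3.56 and 4.86 CPM with APR-246, against 9.18 and 30.5 CPM in solvent (-2.20 ± 0.54, adjusted p = 0.0339 with the GC slope), and KRT16 had 1.38 and 2.15 CPM with APR-246, against 3.85 and 15.1 CPM in solvent (-2.17 ± 0.46, adjusted p = 0.0164 with the GC slope). In KRT7 and KRT16 solvent library 2 stood far above solvent library 1. S100A14 and LAMB3 were among the 12 lowest genes. S100A14, a calcium-binding protein of epithelia, had 31.0 and 12.1 CPM with APR-246, against 65.1 and 108 CPM in solvent (-2.08 ± 0.39, adjusted p = 0.25; -2.10 ± 0.39, adjusted p = 0.0122 with the GC slope). LAMB3, a laminin chain of the basement membrane, had 124 and 96.4 CPM with APR-246, against 284 and 666 CPM in solvent (-1.98 ± 0.52, adjusted p = 0.364; -2.14 ± 0.48, adjusted p = 0.025 with the GC slope). Of 10 tested colon epithelium markers 2 fell (CDH1 and KRT18) and 0 rose, with a median of -0.08 (-0.25 with the GC slope), 3 above 0 and 7 below. CDH1, E-cadherin, had 36.6 and 15.9 CPM with APR-246, against 59.2 and 47.5 CPM in solvent (-1.12 ± 0.40, adjusted p = 0.52; -0.93 ± 0.23, adjusted p = 0.0232 with the GC slope). The keratin median was -0.63 without APR-246 library 2 and -0.05 without solvent library 2 (-0.53 and -0.79 with the GC slope), so that without the slope it lay near 0 once solvent library 2 was left out. It was -0.22 without APR-246 library 1 and -0.92 without solvent library 1.

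Of the output and feedback genes of the ERK kinase pathway, 4 of 16 fell (ETV5, PHLDA1, FOSL1 and EPHA2) and 0 rose, with a median of -0.50 (-0.40 with the GC slope). PHLDA1 had 348 and 223 CPM with APR-246, against 608 and 557 CPM in solvent (-1.06 ± 0.31, adjusted p = 0.395; -1.0 ± 0.19, adjusted p = 0.00742 with the GC slope). FOSL1, an AP-1 subunit, had 269 and 309 CPM with APR-246, against 339.8 and 1087 CPM in solvent (-1.35 ± 0.37, adjusted p = 0.0475 with the GC slope). DUSP5, a phosphatase that inactivates ERK, had 189.6 and 104 CPM with APR-246, against 387 and 598 CPM in solvent (-1.78 ± 0.54, adjusted p = 0.422; -1.75 ± 0.59, adjusted p = 0.1 with the GC slope), and SPRY4, a feedback inhibitor, was -0.98 (-0.80, adjusted p = 0.175 with the GC slope). Of 23 NF-kB targets and cytokines 2 fell (NFKB2 and RELB) and 1 rose (SOD2), beside 3.43% and 3.31% of all genes tested. The groups did not overlap in 10 with APR-246 lower and in 1 with APR-246 higher, beside 13.2% and 11.9% of all genes tested. The median was -0.32 (-0.44 with the GC slope). The neutrophil chemokine CXCL8 had 1.06 and 1.14 CPM with APR-246, against 3.60 and 3.37 CPM in solvent (-1.29 ± 0.46, adjusted p = 0.0985 with the GC slope), and CXCL1 and LCN2, an iron-scavenging lipocalin, were -1.44 and -2.07, without passing either test. The medians were -0.32 without APR-246 library 2 and -0.21 without solvent library 2 (-0.31 and -0.37 with the GC slope) for the ERK genes and -0.34 without APR-246 library 2 and -0.14 without solvent library 2 (-0.36 and -0.36 with the GC slope) for NF-kB, with 0 called. The NF-kB median was -0.20 without APR-246 library 1 and -0.49 without solvent library 1.

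The direct p53 targets went both ways. Of 31 tested, 4 rose (PLK2, BAX, DDB2 and POLH) and 2 fell (CDKN1A and TNFRSF10B) with the GC slope, beside 3.31% and 3.43% of all genes tested. The median log2 difference was -0.04 (0.04 with the GC slope), beside -0.03 (-0.01) over all genes tested. MDM2, the ubiquitin ligase that limits p53, had 24.7 and 11.2 CPM with APR-246, against 32.6 and 12.9 CPM in solvent (-0.30 ± 0.58, adjusted p = 0.942; 0.05 ± 0.17, adjusted p = 0.901 with the GC slope). CDKN1A, the cyclin-dependent kinase inhibitor p21, had 106 and 107 CPM with APR-246, against 141 and 296 CPM in solvent (-0.94 ± 0.40, adjusted p = 0.614; -1.13 ± 0.16, adjusted p = 0.00288 with the GC slope). Its 2 APR-246 libraries were nearly equal, and the solvent libraries lay above them and apart from each other. DDB2, a DNA damage sensor, had 17.4 and 28.2 CPM with APR-246, against 8.15 and 12.2 CPM in solvent (0.91 ± 0.19, adjusted p = 0.00977 with the GC slope). TNFRSF10B, the TRAIL death receptor DR5, which the stress factor CHOP is also known to induce, had 152 and 68.7 CPM with APR-246, against 324 and 275 CPM in solvent (-1.54 ± 0.47, adjusted p = 0.422; -1.35 ± 0.36, adjusted p = 0.04 with the GC slope). GADD45A, a growth arrest gene, had 153 and 95.2 CPM with APR-246, against 357 and 395 CPM in solvent (-1.64 ± 0.49, adjusted p = 0.407; -1.49 ± 0.44, adjusted p = 0.0633 with the GC slope). Without APR-246 library 2 or solvent library 2, 0 of the 31 were called, and over the 4 leave-one-out fits the median ran from -0.10 to 0.03 (-0.05 to 0.10 with the GC slope).

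Inhibitors of cyclin-dependent kinases and regulators of apoptosis went both ways. CDKN2B, the inhibitor p15, had 20.9 and 8.88 CPM with APR-246, against 60.8 and 50.0 CPM in solvent (-1.97 ± 0.57, adjusted p = 0.395; -1.72 ± 0.43, adjusted p = 0.0336 with the GC slope), the opposite direction to its relative CDKN2C. Of 7 such inhibitors 3 fell (CDKN1A, CDKN2A and CDKN2B) and 1 rose. Of 15 BCL2 family genes 2 rose (BAX and BID) and 2 fell (MCL1 and HRK), beside 3.31% and 3.43% of all genes tested. Their median was 0.16 (-0.10 with the GC slope). BAX, which opens the mitochondrial outer membrane, had 41.8 and 82.2 CPM with APR-246, against 22.3 and 42.9 CPM in solvent (0.65 ± 0.14, adjusted p = 0.0112 with the GC slope), with overlapping groups. MCL1, which opposes it, had 158 and 81.2 CPM with APR-246, against 266 and 163 CPM in solvent (-0.64 ± 0.18, adjusted p = 0.0393 with the GC slope). HRK, a pro-death member, had 3.38 and 1.41 CPM with APR-246, against 6.57 and 5.02 CPM in solvent (-1.06 ± 0.28, adjusted p = 0.0269 with the GC slope).

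Few genes of the thiol defence were called, and these went both ways. Of 30 genes of NRF2 and glutathione 2 rose (GSR and ABCC2) and 3 fell (SRXN1, NFE2L2 and FTH1), beside 3.31% and 3.43% of all genes tested. The list had a median of 0.15 (0.12 with the GC slope). That median was 0.09 without APR-246 library 2 and 0.33 without solvent library 2 (0.09 and 0.10 with the GC slope), and 0.25 without APR-246 library 1 and 0.07 without solvent library 1. NFE2L2, which encodes NRF2, had 42.9 and 20.4 CPM with APR-246, against 93.9 and 49.1 CPM in solvent (-1.19 ± 0.59, adjusted p = 0.714; -0.84 ± 0.18, adjusted p = 0.0122 with the GC slope). TXNRD1, thioredoxin reductase, had 308 and 169 CPM with APR-246, against 415 and 295 CPM in solvent (-0.62 ± 0.45, adjusted p = 0.863; -0.40 ± 0.22, adjusted p = 0.308 with the GC slope). GCLM, a subunit of the enzyme that starts glutathione synthesis, had 36.9 and 29.6 CPM with APR-246, against 36.7 and 27.5 CPM in solvent (0.05 ± 0.24, adjusted p = 0.974). HMOX1, heme oxygenase, had 50.8 and 109 CPM with APR-246, against 27.8 and 85.0 CPM in solvent (0.61 ± 0.62, adjusted p = 0.896), and NQO1, a quinone reductase, had 374 and 561 CPM with APR-246, against 233 and 449 CPM in solvent (0.50 ± 0.42, adjusted p = 0.878). The groups overlapped in TXNRD1, GCLM, HMOX1 and NQO1. PGD, an enzyme of the pentose phosphate pathway, was 0.92, with overlapping groups, and ABCC3, an efflux pump of glutathione conjugates, was -1.24 (-1.16, adjusted p = 0.159 with the GC slope). Of 14 genes of ferroptosis, death by lipid peroxidation, 3 rose (TFRC, HSPB1 and FANCD2) and 0 fell, beside 3.31% and 3.43% of all genes tested. HSPB1 is also counted among the heat shock chaperones. The groups did not overlap in 1 of the 14, with APR-246 higher. TFRC, the transferrin receptor, had 156 and 117 CPM with APR-246, against 132 and 63.7 CPM in solvent (0.83 ± 0.14, adjusted p = 0.00352 with the GC slope), with overlapping groups. GPX4, which reduces lipid peroxides, had 411 and 1019 CPM with APR-246, against 295 and 899 CPM in solvent (0.33 ± 0.76, adjusted p = 0.955). Of 4 tested metallothioneins 0 passed (median -0.08). Without APR-246 library 2 or solvent library 2 none of these genes was called.

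Cholesterol synthesis genes, targets of SREBP2, were partly higher: 6 of 24 rose and 0 fell (median log2 difference 0.71, 0.65 with the GC slope). Of all genes tested 3.31% rose and 3.43% fell. ACAT2 had 13.6 and 25.9 CPM with APR-246, against 4.76 and 6.64 CPM in solvent (1.65 ± 0.48, adjusted p = 0.395; 1.48 ± 0.40, adjusted p = 0.044 with the GC slope). EBP, a sterol isomerase, rose by 0.96 (adjusted p = 0.0185 with the GC slope). INSIG1, a sterol-controlled brake on SREBP2, had 34.7 and 41.6 CPM with APR-246, against 14.1 and 16.7 CPM in solvent (1.28 ± 0.42, adjusted p = 0.465; 1.20 ± 0.41, adjusted p = 0.102 with the GC slope). Of 15 WNT targets 3 rose (NOTUM, TCF7 and BMP4) and 0 fell, beside 3.31% and 3.43% of all genes tested. The median of the list was 0.49 (0.31 with the GC slope). TCF7, a WNT effector, had 32.2 and 70.9 CPM with APR-246, against 13.2 and 24.6 CPM in solvent (1.10 ± 0.22, adjusted p = 0.0102 with the GC slope). AXIN2, a feedback inhibitor of the pathway, had 2.45 and 3.43 CPM with APR-246, against 1.40 and 0.768 CPM in solvent (1.13 ± 0.57, adjusted p = 0.723). The WNT median was 0.32 without APR-246 library 2 and 0.50 without solvent library 2 (0.34 and 0.12 with the GC slope), and with the GC slope it was 0.50 without solvent library 1. The median of cholesterol synthesis was 0.51 without APR-246 library 2 and 1.10 without solvent library 2 (0.49 and 0.42 with the GC slope), with 0 called.

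Among all genes tested 3.43% fell, and the single gene that fell in each of the hypoxia and interferon lists is a share near that. Of 26 genes of hypoxia and glycolysis 1 fell (HK2, a hexokinase) and 0 rose with the GC slope (median 0.65, 0.32 with the GC slope). Without the slope 20 lay above 0 and 6 below. The groups did not overlap in 8 with APR-246 higher and in 2 with it lower, beside 11.9% and 13.2% of all genes tested. The angiogenic factor VEGFA had 71.0 and 39.9 CPM with APR-246, against 158 and 158 CPM in solvent (-1.43 ± 0.40, adjusted p = 0.0534 with the GC slope), and the glycolytic enzyme PGAM1 had 325 and 729.9 CPM with APR-246, against 128 and 240.0 CPM in solvent (1.12 ± 0.35, adjusted p = 0.0755 with the GC slope). Of 29 interferon-stimulated genes 1 fell, ISG20 (10.9 and 10.5 CPM with APR-246, against 17.1 and 40.1 CPM in solvent; -1.49 ± 0.23, adjusted p = 0.00315 with the GC slope), and the median was 0.01. OAS3, an RNA sensor, had 93.2 and 144 CPM with APR-246, against 44.6 and 64.1 CPM in solvent (0.94 ± 0.28, adjusted p = 0.0541 with the GC slope). Of 15 MHC class I genes 2 fell and 0 rose (median -0.04), and of 21 ribosome biogenesis genes 2 fell (POLR1A and RRP12) and 0 rose (median -0.04). None of 14 replication-dependent histones (median 0.29) or 13 mitochondrially encoded mRNAs (median 0.01) passed, with the GC slope or without it. MYC had 343 and 336 CPM with APR-246, against 300.0 and 378 CPM in solvent (0.01 ± 0.31, adjusted p = 1).

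The response in Mutant was set against those in Null and WT to ask whether it depends on the p53 status of the line. No gene passed the test of the difference in response in limma, between Mutant and Null (257 genes, 1.24%, at an unadjusted p below 0.05) or between Mutant and WT (216 genes, 1.05%), and edgeR, DESeq2 and the fits with the GC slope or a replicate block also called 0 (0% called in each). Standard errors of these differences had a median of 0.454. Null had 27 genes called (0.131%), 6 higher (0.029%) and 21 lower (0.102%), in limma, and 1416 (6.85%) and 1698 (8.22%) with the GC slope, while WT had 0 in both fits (0%). Of the 684 genes that rose in Mutant 434 also rose in Null, which is 63.5% of the Mutant and 30.6% of the Null list, and of the 708 that fell 507 also fell in Null (71.6% and 29.9%). With the GC slope 670 of the 684 (98%) had a difference above 0 in Null and 672 (98.2%) in WT. Of all genes tested 49.5% and 51.6% did. In the same fit 686 of the 708 (96.9%) lay below 0 in Null and 684 (96.6%) in WT. Of all genes tested 50.5% and 48.4% did. These lines share no library with Mutant, but all these differences come from the same fit, in which the lines share the GC term and the spread of each gene. With the GC slope the median log2 difference of the genes that rose was 0.75 in Mutant, 0.66 in Null and 0.39 in WT. That of the genes that fell was -0.78 in Mutant, -0.72 in Null and -0.40 in WT. These genes were chosen on their values in Mutant, so the order of these medians is no measure of a difference between lines.

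**Figure D5:**
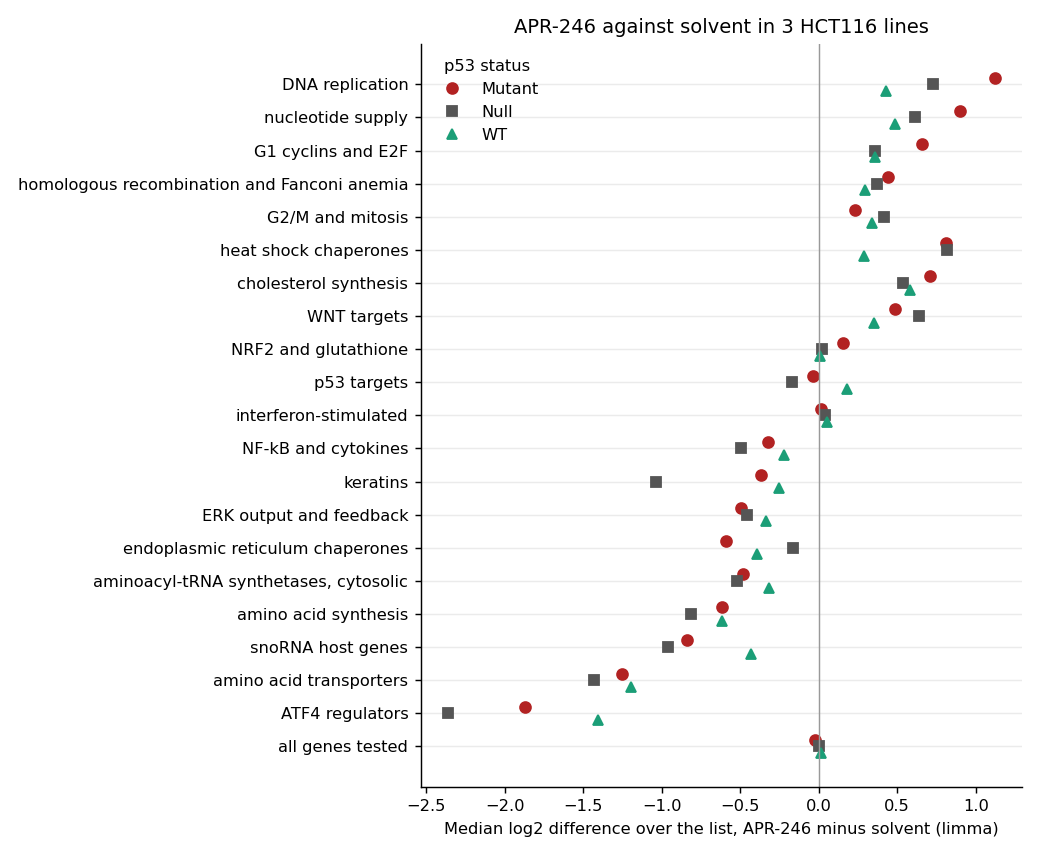
Median log2 difference (APR-246 minus solvent, limma) of each gene list in Mutant (circles), Null (squares) and WT (triangles). DNA replication is at 1.12, 0.73 and 0.43 and the ATF4 regulators are at -1.87, -2.36 and -1.40, and all genes tested lie near 0 in each line.

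By list, DNA replication had a median log2 difference of 1.12 in Mutant, 0.73 in Null and 0.43 in WT. Heat shock chaperones were at 0.81 in Mutant, 0.81 in Null and 0.29 in WT. The ATF4 regulators were at -1.87 in Mutant, -2.36 in Null and -1.40 in WT, and the keratins at -0.37 in Mutant, -1.03 in Null and -0.26 in WT. The endoplasmic reticulum chaperones were at -0.59 in Mutant, -0.16 in Null and -0.39 in WT. Direct p53 targets were at -0.04 in Mutant, -0.17 in Null and 0.18 in WT. Relative to gene means over the 4 Mutant libraries, DNA replication in WT was -0.54 and 0.35 with APR-246, against -0.45 and -0.49 in solvent. Heat shock chaperones there were at -0.50 and 0.39, against -0.36 and -0.41, and the ATF4 regulators at 0.73 and -1.47, against 1.06 and 1.28. The WT medians of these lists therefore rest mainly on WT APR-246 library 2, as library 1 lay near solvent. Among single genes, GINS2 was 2.18 in Mutant, 0.79 in Null and 0.64 in WT, and S100A14 was -2.08 in Mutant, -0.86 in Null and -0.54 in WT. CDKN1A was -0.94 in Mutant, -1.38 in Null and 0.18 in WT, and its difference between Mutant and WT was -1.12 ± 0.56 (adjusted p = 1). For GINS2 the difference between Mutant and Null was 1.39 ± 0.83 (adjusted p = 1). DDIT4 was -2.89 in Mutant, -3.35 in Null and -1.60 in WT. A p that misses the threshold does not show that the lines respond alike, and each status is 1 line.

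In the same Mutant line, irradiation and the combination were set against the same 2 solvent libraries, so these comparisons share their controls with that of APR-246 and their values are given side by side. Limma called 16 genes (0.0774%) after irradiation, 14 higher (0.0677%) and 2 lower (0.00968%), and 72 (0.348%) after the combination, 54 higher (0.261%) and 18 lower (0.0871%). The median log2 difference of DNA replication was 1.12 with APR-246, 0.86 after irradiation and 1.13 after the combination. The ATF4 regulators were at -1.87 with APR-246, -2.00 after irradiation and -2.00 after the combination, and the heat shock chaperones at 0.81 with APR-246, 0.71 after irradiation and 0.98 after the combination. Keratins were at -0.37 with APR-246, 0.06 after irradiation and -0.02 after the combination. DDIT4 was -2.89 with APR-246, -2.45 after irradiation and -2.76 after the combination, and MCM4 was 1.81 with APR-246, 1.46 after irradiation and 1.81 after the combination. CDKN1A was -0.94 with APR-246, -0.10 after irradiation and -0.62 after the combination, and CXCL8 was -1.32 with APR-246, -0.29 after irradiation and -0.09 after the combination.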

How the data were processed

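RNA of 24 HCT116 libraries was sequenced after oligo(dT) selection, per the labels' protocols. FastQC, STAR, Subread with its counter featureCounts, and the build GRCh38.p13 are named in the submitters' processing notes. Versions, the annotation release and the counting strand are not given in the sources used here. The deposited values are CPM of reads assigned to genes, for 60675 gene IDs. Steps of the deposited CPM gave back whole reads for 100% of values within 0.05 of a read, and the 24 totals were 53184139 to 58058729. Among values of 2 to 9 reads in the 4 libraries compared, 74.5 to 79.5% were even. A floor of 3 reads is 0.0519 to 0.0545 CPM there, and covers counting error only.

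Symbols were matched for 60419 IDs and positions and GC content for 58444 (GENCODE 29). Genes passing filterByExpr with a count minimum of 10 (20668) were fitted with limma-trend 3.58.1 (robust, R 4.3.3) on log2(TMM-scaled CPM + 0.5), with 12 groups (12 residual degrees of freedom, or 11 once the GC slope of each library was added). That slope was computed over 10736 genes with mean log2 CPM of at least 2. Of the tested genes 98.3% had a GC content. Folds of weakly expressed genes are understated on this scale. A ± is a standard error of the fit, from 2 libraries a group. edgeR 4.0.16 and DESeq2 1.42.0 were run as alternatives on the counts recovered from the deposited CPM, and called 0 and 97 genes. The scripts were tested on simulated data. Genes named are the 12 highest and 12 lowest by log2 difference among protein-coding genes of at least 5 CPM called with the GC slope and not overlapping between groups (416 and 331 qualified), up to 4 of the largest differences per list, and 16 fixed p53, ATF4 and thiol genes. Other members are named after their values were seen. Some genes that the rule names are not reported here. Scaling, pseudocount, filter, replicate block, the libraries fitted and the tool were varied. The members, the lists and the GC slope as a covariate were chosen with earlier results of these data known.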

Additional observations from a re-analysis of the deposited data

How the results depend on the processing

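In limma without the GC slope, 0 genes were called on the deposited CPM, with DESeq2's size factors, with a pseudocount of 0.1 CPM, with the stricter filter, from the 8 Mutant libraries, from the 4 libraries compared, and by edgeR. A pseudocount of 2 CPM gave 1, no filter on low values 14, DESeq2 97 and the GC slope 1392, and leaving out each library gave 0 to 8, with 8 without APR-246 library 1. With the GC slope the count was 180 with no filter on low values and 2505 from the 8 Mutant libraries. It was 1204 to 1857 for the other scalings, pseudocounts, filter, slope and edgeR, and for leaving out either library 1, but 0 without library 2 of either group, so that the 4 leave-one-out counts ran from 0 to 1355. For the difference in response, no filter gave 2 genes against each of Null and WT, and leaving out each library gave 0 to 2. Same-numbered libraries had correlated deviations in 55 of 66 pairs of groups, with a correlation of 0.83 between Mutant APR-246 and Mutant solvent. The other 11 pairs all held Null APR-246 and were below 0, down to -0.56. With 2 libraries a group and no label that ties numbers to a culture or day, the pairing is a hint from the data. A replicate block over all groups called 299 genes (22 of DNA replication, 7 heat shock chaperones and 6 ATF4 regulators) and a block within each line 57, and with the GC slope as well 2225 and 2091. Genes near 0 changed sign. GCLM was -0.000757 and MYC -0.0435 on the deposited CPM (MYC 0.0702 there with the GC slope), and with the GC slope MDM2 was 0.0526, GPX4 -0.12 and MYC -0.0581. Over the leave-one-out fits MDM2 ran from -0.95 to 0.35, GCLM from -0.15 to 0.26, HMOX1 from -0.19 to 1.40, GPX4 from -0.47 to 1.13 and MYC from -0.15 to 0.18. With the GC slope MDM2 ran from -0.0814 to 0.17, GCLM from -0.0434 to 0.22 and MYC from -0.18 to 0.0467. The cause was not tested.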

Other observations

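Among genes outside the lists, named here after their values were seen, 4 of those with a low adjusted p with the GC slope are given as values. CHAF1B, a subunit of the histone chaperone that loads new nucleosomes, had 34.3 and 57.6 CPM with APR-246, against 12.6 and 18.4 CPM in solvent (log2 difference 1.34, limma adjusted p = 0.00288 with the GC slope). RBBP7, a histone-binding protein, had 76.5 and 88.6 CPM with APR-246, against 37.6 and 30.2 CPM in solvent (1.35, limma adjusted p = 0.00315 with the GC slope). CA2, a carbonic anhydrase, had 13.2 and 16.8 CPM with APR-246, against 6.23 and 4.78 CPM in solvent (1.42, limma adjusted p = 0.00288 with the GC slope). S100A16, a relative of S100A14, had 263 and 333 CPM with APR-246, against 345 and 926 CPM in solvent (-1.25, limma adjusted p = 0.00352 with the GC slope). In these 4 genes the groups did not overlap.

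By transcript class, 658 of 14715 protein-coding genes tested rose and 622 fell with the GC slope (8.7% called). Of 1311 intergenic noncoding RNAs 8 rose and 33 fell (3.13%), and of 1618 antisense RNAs 6 rose and 18 fell (1.48%), for which the counting strand is not known. LINC00662 had 7.43 and 4.51 CPM with APR-246, against 17.0 and 14 CPM in solvent (-1.24, limma adjusted p = 0.0252 with the GC slope).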
